A study of Mus musculus with 8 samples.

Results

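The SLAM family gene cluster is a run of 6 genes on mouse chromosome 1, Ly9, Slamf7, Cd48, Slamf1, Cd84 and Slamf6, chosen by name. They were 6 of 21938 protein-coding genes placed on 50 kb bins (GRCm38 assembly, GENCODE vM21 annotation), and their start sites fell in 5 bins. The stretch from the first to the last of these bins held 7 bins (chr1:171600505-171950026, 349.5 kb) and is called the cluster below. With 1 Mb on each side it made a region of 47 of 48088 autosomal bins (chr1:170599943-172949713) in which 66 protein-coding genes start, 35 to the left of the cluster, 7 in it and 24 to the right.

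The assay was in situ Hi-C. Fixed chromatin is cut (here with MboI), nearby ends are ligated and the joined pieces are sequenced, and each read pair counts 1 contact. Splenic B cells were taken from male mice of 6 to 12 weeks, isolated by negative selection and all stimulated in culture with 25 μg/ml LPS, a bacterial product that activates B cells. There were 2 biological replicates in each of 4 groups, taken at 3 h, at 10 h and, as 2 separately sorted populations called imminent division and pre-S, at 33 h. All were sorted as activated cells that had not yet divided (CD69+ with the highest CellTrace Violet dye). The mice were on a Pep3b background per the study's methods. The 3 h, 10 h and imminent division cells came from C57BL/6 mice, while the pre-S cells came from C57BL/6 FUCCI reporter mice and were also gated on the cell cycle reporters (mAG- mKO2hi), so strain and gate cannot be told apart from the pre-S group. Hi-C holds no expression values, so the cell type could not be checked by its marker genes. The libraries held between 88703088 and 218945191 read pairs. The second imminent division library stood apart on the sex chromosomes, with 3.74% of read ends on X and 0.0490% on Y against 2.39 to 2.84% and 0.0804 to 0.123% in the other 7 libraries, so named results whose call it decided are also given without it. Where 1 library of a group was left out, the remaining one was assumed to vary like those of the other groups.

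SLAM receptors are immunoglobulin-type proteins on the surface of lymphocytes and other blood cells. Most of them bind a copy of themselves on the neighbouring cell, and tyrosine motifs in their tails recruit SAP-type adaptors, the kinase Fyn and phosphatases, which tune how B, T and NK cells respond when they touch. Slamf1 is the founding member, Ly9, Slamf7, Cd84 and Slamf6 are self-binding receptors, and Cd48 is a lipid-anchored protein of the same family that binds the receptor encoded by its neighbour Cd244a. Their genes arose by duplication and lie side by side.

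In order along the chromosome, Ly9 (chr1:171588624-171607410, minus strand) starts in the first bin of the cluster. Slamf7 (chr1:171632403-171653035, minus strand) and Cd48 (chr1:171682009-171705258, plus strand) both start in the next bin, at 50 kb from the Ly9 bin, and could not be told apart at this resolution. Slamf1 (chr1:171767127-171801184) starts at 150 kb, Cd84 (chr1:171839697-171890718) at 200 kb and Slamf6 (chr1:171917515-171953170) at 300 kb, all on the plus strand. The bin at 100 kb holds no start site but the 3′ end of Cd48, and the bin at 250 kb holds the 3′ end of Cd84 and, past it, the start of the predicted gene Gm10521. Positions below are distances from the start of the Ly9 bin.

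Chromatin loops and the edges of contact domains often lie at sites of the protein CTCF, whose motif has a direction, and its core motif (CCA, any 2 bases, AGG, any base, GGC) was therefore searched on both strands of the GRCm38 sequence. Of the 48088 autosomal bins, 16209 (33.7%) held a match. The region held 40 matches in 25 of its bins, of which 21 lay in the left 1 Mb, 3 in the cluster and 16 in the right 1 Mb. The matches of the cluster are shown because they mark where in it a motif lies, those of the Vangl2 bin because that bin was the strongest partner of the cluster, and those of the Crp bin because it held the lowest insulation of the region (the first 2 sets were chosen after the values were seen). Each is printed on the strand of its motif, with the motif in capitals and 10 bases on either side.
Ly9 bin, chr1:171614155-171614186, minus strand, between Cd244a and Slamf7: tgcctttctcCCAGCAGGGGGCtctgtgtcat
Slamf7 and Cd48 bin, chr1:171651550-171651581, minus strand, intron of Slamf7: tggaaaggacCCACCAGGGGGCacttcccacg
Gm10521 bin, chr1:171871085-171871116, plus strand, intron of Cd84: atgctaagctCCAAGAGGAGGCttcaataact
Vangl2 bin, chr1:172018547-172018578, minus strand, intron of Vangl2: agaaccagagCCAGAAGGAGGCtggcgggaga
Vangl2 bin, chr1:172047063-172047094, plus strand, between Vangl2 and Nhlh1: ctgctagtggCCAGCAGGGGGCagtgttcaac
Crp bin, chr1:172650674-172650705, plus strand, between Dusp23 and Crp: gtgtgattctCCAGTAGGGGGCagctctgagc
Crp bin, chr1:172677355-172677386, minus strand, between Dusp23 and Crp: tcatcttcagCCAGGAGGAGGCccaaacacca
Of the 3 cluster matches, those near Ly9 and in Slamf7 were on the minus strand and the one in Cd84 was on the plus strand. A further plus-strand match of the Vangl2 bin, in an annotated exon of that gene, is not printed. The Slamf1, Cd84 and Slamf6 start bins held no match, and neither did the bin of the left insulation minimum described below. A match is a description of letters and shows no binding.

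Contacts are given as observed over expected, the read pairs counted divided by the mean autosomal count at the same distance in the same library, so that 1 is the genome average. All 21 pairs of different bins inside the cluster were above 1 in every one of the 8 libraries, from a lowest value of 1.1 to a highest of 4.19. Summed over these pairs, contact inside the cluster was 2.12 and 2.27 at 3 h, 2.12 and 2.03 at 10 h, 1.80 and 1.83 in imminent division cells, and 1.69 and 1.73 in pre-S cells, from between 2661 and 6544 read pairs a library. All 4 early libraries lay above all 4 libraries of 33 h. With the bins' coverage in contacts between chromosomes divided out, the values inside ran only from 1.07 to 1.47. The early libraries then no longer all lay above those of 33 h. When the autosomes were tiled with 6415 windows of the same width, 97.9% of them had less contact inside than the cluster at 3 h, 96.8% at 10 h, 96.7% in imminent division cells and 95.1% in pre-S cells.

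**Figure D1:**
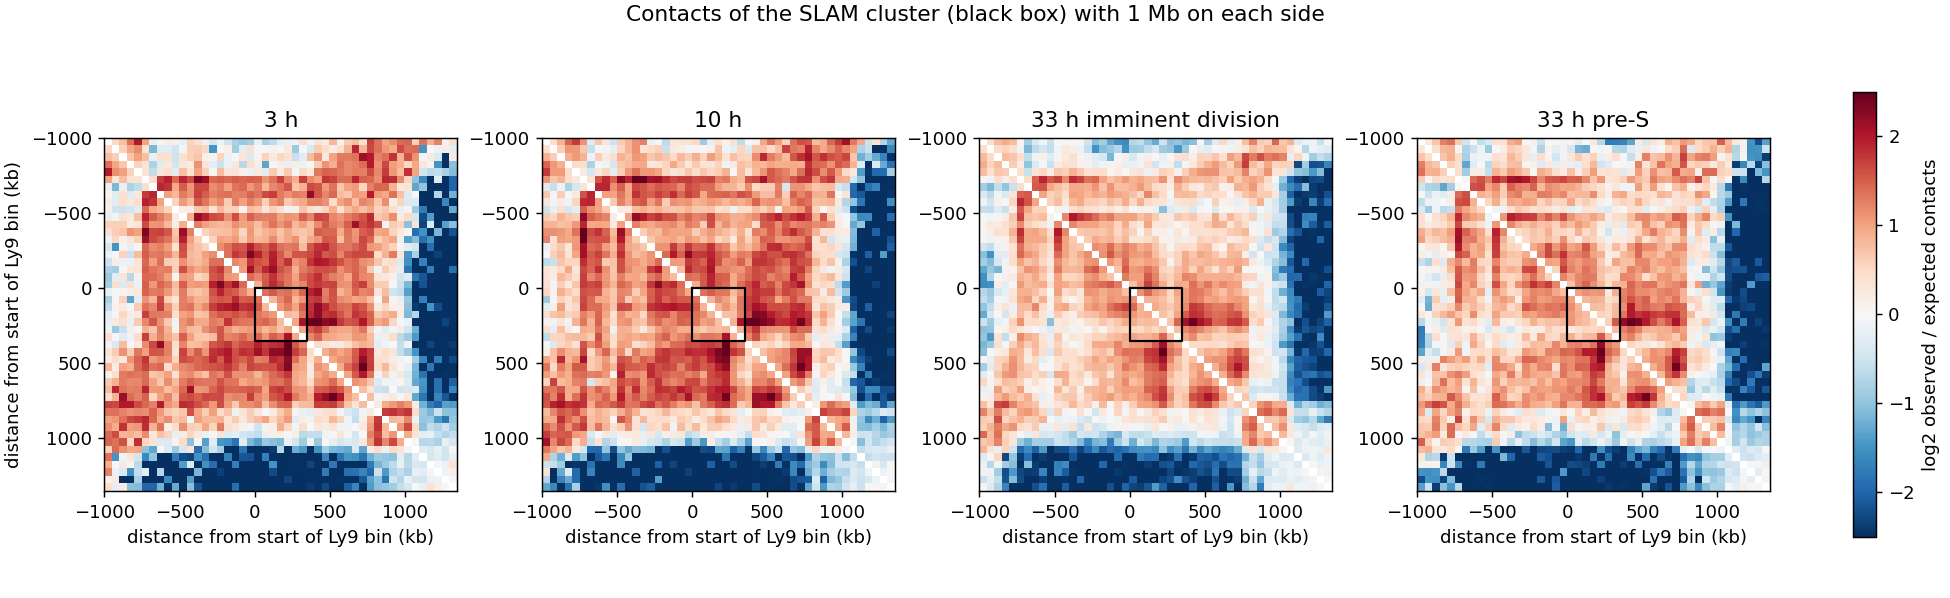
Observed over expected contacts (log2 colour scale, red above and blue below the genome average) between all 50 kb bins of the region, as means of the 2 libraries of each of the 4 groups. Both axes are the distance from the start of the Ly9 bin in kb, the black box is the cluster, and the block of contacts around it is paler in both groups of 33 h and stops near 1050 kb in all 4.

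Contacts that leave the cluster were high too, but the values and window ranks below are not corrected for coverage. The cluster's coverage in contacts between chromosomes was 1.21 to 1.51 times the genome mean. With it divided out, imminent division cells were at 1.03 and 0.951 to the left and at 0.901 and 0.878 over the cluster. In the other groups no library was below 1.11 in these 2 classes, and to the right the lowest library was at 1.37. Cluster bins met the 1 Mb to the left at 2.34 and 2.31 times the expected count at 3 h, 2.32 at 10 h in both libraries, 1.57 and 1.67 in imminent division cells, and 1.71 and 1.68 in pre-S cells. To the right the values were 2.38 and 2.28 at 3 h, 2.46 and 2.41 at 10 h, 1.86 and 1.97 in imminent division cells, and 1.99 and 2.03 in pre-S cells. Without the correction for coverage both sides were thus lower in every library of 33 h than in any early one, with the wider gap on the left. Contacts that pass over the cluster, from the left to the right 1 Mb, were 1.92 and 1.79 at 3 h, 1.81 and 1.86 at 10 h, 1.13 and 1.21 in imminent division cells, and 1.26 and 1.3 in pre-S cells. Against windows of the same width this was a change of rank: 94.0% of windows were lower than the cluster at 3 h and 93.1% at 10 h, but 71.0% in imminent division cells and 78.1% in pre-S cells. For contacts to the right the rank stayed between 97.1 and 98.0% in the 4 groups, and for contacts to the left it was 97.5% in both early groups, 92.0% in imminent division cells and 92.9% in pre-S cells.

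**Figure D2:**
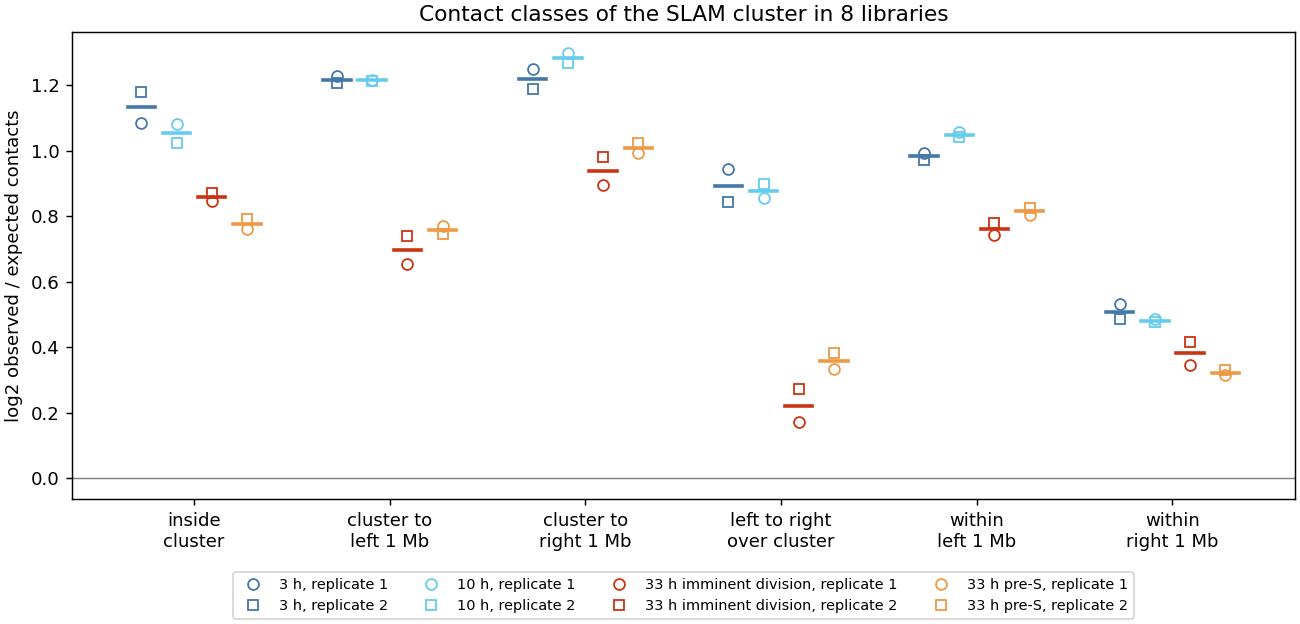
Log2 observed over expected contacts (y axis, no unit) of 6 classes of bin pairs: inside the cluster, from it to each side, over it, and within each side. Each point is 1 of 8 libraries (circle replicate 1, square replicate 2), bars are group means, and the widest gap between the early and the 33 h libraries is in the contacts over the cluster.

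The first comparison asks what changes between 3 h and 10 h of stimulation. By edgeR's quasi-likelihood test across all 6415 windows, with Benjamini-Hochberg adjustment, the cluster did not pass in any class. The log2 changes were -0.08 inside (adjusted p = 1.00), -0.00 to the left (adjusted p = 0.996), 0.07 to the right (adjusted p = 0.662) and -0.01 over the cluster (adjusted p = 0.932). Windows called in either direction made up 0.0156% inside, 0.218% left, 0.655% right and 1.43% over, so that few windows of any kind passed. The cluster's interchromosomal coverage over the genome mean was 1.51 and 1.39 at 3 h and 1.28 in both 10 h libraries. With that coverage divided out, contacts of all 4 classes were higher at 10 h, by 0.25 inside, 0.33 left, 0.36 right and 0.28 over on the log2 scale (adjusted p = 0.00294, 1.3e-07, 1.3e-07 and 0.000179), so the call in this comparison depends on that choice.

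Between 10 h and imminent division contacts of the cluster fell in all 4 classes by the same edgeR test. They fell by 0.19 inside on the log2 scale (adjusted p = 0.00302, with 15.8% of windows called lower), by 0.52 to the left (adjusted p = 2.2e-05, 22.9% of windows), by 0.34 to the right (adjusted p = 0.000134, 22.8%) and by 0.65 over the cluster (adjusted p = 7.4e-06, 29.3%). The median window changed by 0.06, 0.10, 0.10 and 0.05 in these classes. Falls were thus called in many other windows as well. Without the second imminent division library the falls were 0.21, 0.56, 0.39 and 0.71, all 4 called. Without the first 10 h library the fall inside was 0.16 and was not called (adjusted p = 0.0894).

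Between 10 h and pre-S, a comparison that shares its 10 h libraries with the one before, contacts fell by 0.28 inside (edgeR, adjusted p = 9.9e-05, with 24.9% of windows called lower), by 0.46 to the left (adjusted p = 0.000166, 23.8%), by 0.27 to the right (adjusted p = 0.000947, 23.7%) and by 0.52 over the cluster (adjusted p = 0.000122, 25.4%). Here the fall inside was as large as that to the right. With coverage divided out all 8 falls of the 2 comparisons were still called, between 0.17 and 0.81. In observed over expected values corrected in this way 3 h no longer lay above all of 33 h, except over the cluster. To the right 3 h was at 1.42 and 1.55, below pre-S (1.69 and 1.70) and overlapping with imminent division (1.45 and 1.37), and to the left and inside it overlapped with pre-S. Inside, at 1.09 and 1.33, it overlapped with imminent division (1.22 and 1.07) as well.

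Imminent division and pre-S, the 2 groups taken at 33 h, did not differ past the threshold in any class of the cluster. The log2 differences, imminent division over pre-S, were 0.08 inside (edgeR, adjusted p = 0.232), -0.06 left (adjusted p = 0.417), -0.07 right (adjusted p = 0.382) and -0.13 over (adjusted p = 0.103). Windows called in either direction made up 9.37% inside, 7.25% left, 7.14% right and 23.1% over. The difference over the cluster was called with the cluster widened to whole gene bodies (-0.18, adjusted p = 0.0442), with 500 kb on each side (-0.21, adjusted p = 0.0190) and with coverage divided out (-0.36, adjusted p = 7.6e-07), where those to the left (-0.28) and right (-0.27) were called as well. Without the first 3 h library it was -0.13 and called (adjusted p = 0.0300), and without the second likewise (adjusted p = 0.0303).

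An exact permutation test over the 8 samples, whose smallest possible p is 0.00952, asked whether the groups differ in each of 7 measures of the locus. Contacts inside the cluster, to the right, within the left 1 Mb and within the right 1 Mb reached that smallest p (adjusted p = 0.0167 over the 7 measures). For contacts to the left and over the cluster the exact permutation p was 0.0286 (adjusted p = 0.0333). Within the left 1 Mb observed over expected contact fell from 1.98 ± 0.0215 at 3 h and 2.07 ± 0.0150 at 10 h to 1.70 ± 0.0319 in imminent division cells and 1.76 ± 0.0194 in pre-S cells (SD, n = 2), and within the right 1 Mb it was 1.42 ± 0.0325, 1.40 ± 0.00600, 1.3 ± 0.0449 and 1.25 ± 0.00950. With coverage divided out the calls inside the cluster and within the right 1 Mb were lost (adjusted p = 0.257 and 0.0667, exact permutation test), and with 500 kb on each side that within the left was lost (adjusted p = 0.0667). Leaving out 1 library ended several of these calls. Contacts to the left and over the cluster were not called without the first imminent division library (adjusted p = 0.0667 for both) or the first pre-S library (adjusted p = 0.0800 and 0.0667), and contacts to the right were lost without the latter as well (adjusted p = 0.0667). Without the second pre-S library none of the measures passed. Contacts within the right 1 Mb were also lost without the first 3 h library (adjusted p = 0.0857), the first 10 h library (adjusted p = 0.0556), the second 10 h library (adjusted p = 0.0571) or the first pre-S library (adjusted p = 0.105).

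At the level of single bin pairs, 849 pairs of the region had enough counts to be tested, 250 of them with at least 1 cluster bin. In this test a pair is compared with pairs of like abundance, so its log2 change can differ from the change in observed over expected contact. Between 3 h and 10 h 27 of the 250 pairs with a cluster bin had an unadjusted p under 0.05 by edgeR and 5 by DESeq2. Over all 1458187 pairs these counts were 86527 and 11680. None of the 849 was called in this comparison by either test (edgeR called 0.000617% of all pairs). Between 10 h and imminent division 132 were called, 130 of them weaker, against a background of 2.01% called and 1.32% weaker. Between 10 h and pre-S 14 were called, all weaker, against 0.596% called and 0.256% weaker. Between the groups of 33 h 7 were called, 6 stronger in imminent division cells, against 0.362%. The second count fell to 60 without the second imminent division library, 53 without the first, 47 without the first 10 h library and 16 without the second. Without 1 library of pre-S or 10 h between 0 and 4 pairs were called in the third comparison, and the count of 7 was 0 without the second imminent division library or either pre-S library.

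The weaker pairs lay mostly on the left and over the cluster. Between 10 h and imminent division 25 of 133 tested pairs from the cluster to the left were weaker and 58 of 263 over the cluster, but 1 of 96 to the right and 1 of 21 inside. Without the second imminent division library these were 8, 34, 2 and 0, and without the second 10 h library 2 and 9 to the left and over. Median log2 changes were -0.62 to the left, -0.76 over, -0.27 to the right and -0.07 inside, beside 0.04 over all tested pairs at most 2.3 Mb apart. Within the left 1 Mb 44 of 190 pairs were weaker and 1 stronger, and within the right 1 Mb 1 of 146 was weaker and 1 stronger. At pre-S the order of the medians was the same, at -0.51 to the left, -0.54 over, -0.26 to the right and -0.24 inside, with 5, 4, 0 and 2 pairs called.

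Among the 5 start bins of the SLAM genes there are 10 pairs, and contacts between them ran from 1.39 to 4.19 times the expected count. The pair of Cd84 and Slamf6, which lie 100 kb apart, was the strongest, at 4.13 and 4.14 at 3 h, 4.19 and 4.02 at 10 h, 2.67 and 2.72 in imminent division cells, and 2.89 and 2.79 in pre-S cells, from 182 to 442 read pairs a library. The early and the 33 h libraries did not overlap, and how many other pairs separate in this way was not counted. Its log2 change was -0.31 from 10 h to imminent division (edgeR, adjusted p = 0.0396) and -0.42 from 10 h to pre-S (adjusted p = 0.0174). Either call was lost when any one of the 10 h libraries or of the libraries of that 33 h group was left out, with adjusted p from 0.0944 to 0.247 in imminent division cells and from 0.151 to 0.206 in pre-S cells. The call in pre-S cells was also lost with bin coverage in the offsets (adjusted p = 0.137), and that in imminent division cells with the replicate number as a block.

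Slamf7 and Cd48, in 1 bin, met Slamf6 at 1.65 and 2.47 times the expected count at 3 h, 2.79 and 2.08 at 10 h, 2.00 and 1.5 in imminent division cells, and 1.42 in both pre-S libraries. The pair was called weaker in pre-S cells than at 10 h (log2 change -0.74, edgeR adjusted p = 0.0390), while its early replicates differed widely. The call was lost without any one library of the comparison (adjusted p from 0.0520 without the second 10 h library to 0.436 without the first) and with bin coverage in the offsets (adjusted p = 0.107). EdgeR called no other pair of SLAM start bins in any comparison. DESeq2 was fitted without edgeR's offsets for abundance. Over all 1458187 pairs it called 65 stronger and 7366 weaker from 10 h to imminent division, and 144 and 1765 to pre-S. Of the pairs of SLAM start bins it called 2 in each comparison of 33 h with 10 h, Cd84 with Slamf6 among them. These were 2 of 9 pairs with an adjusted p at imminent division and 2 of 8 at pre-S, where Slamf7 and Cd48 with Slamf6 had none. Of the 10 pairs, 9 had a change below 0 from 10 h to imminent division and 10 from 10 h to pre-S. Between 3 h and 10 h none was called by edgeR or DESeq2, with 1 at an unadjusted p under 0.05 by each, and likewise none between the groups of 33 h (2 and 0). Slamf1 and Cd84, direct neighbours, had the lowest mean over the 8 libraries, at 1.41 and 1.95 at 3 h, 1.58 and 1.66 at 10 h, 1.60 and 1.63 in imminent division cells, and 1.46 and 1.39 in pre-S cells.

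**Figure D3:**
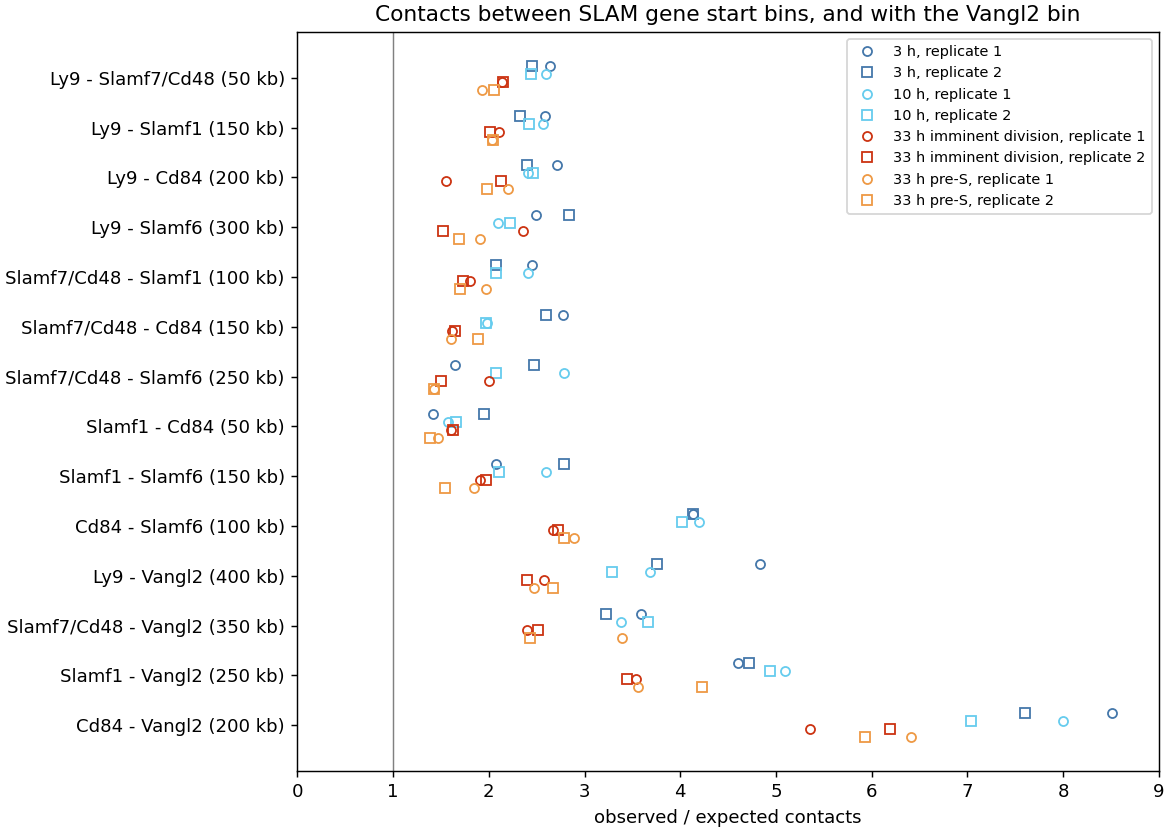
Observed over expected contacts (x axis, no unit, grey line at the genome average of 1) for the 10 pairs of SLAM gene start bins and for 4 of them with the Vangl2 bin, with the distance in kb in each label. Each point is 1 of 8 libraries, and the pair of Cd84 and Vangl2 lies farthest right, between 5.35 and 8.51.

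The strongest partner of the cluster was outside it. The bin at 400 kb (chr1:172000014-172050197), where Vangl2 starts, a membrane protein of planar cell polarity, had the highest mean contact at 100 kb or more with the start bins of Ly9 (mean over the 8 libraries 3.21), Slamf7 and Cd48 (3.07), Slamf1 (4.26) and Cd84 (6.88). Slamf6, the nearest to it, had Cd84 as its first partner (3.44) and Vangl2 as its next (2.54). Cd84 met Vangl2 at 8.51 and 7.60 times the expected count at 3 h, 8.0 and 7.04 at 10 h, 5.35 and 6.19 in imminent division cells, and 6.41 and 5.93 in pre-S cells, from 209 to 565 read pairs. The values of 33 h lay below the early ones, but the pair was not called in any comparison (log2 changes between -0.14 and 0.18, edgeR adjusted p from 0.509 to 0.999). Cd84 also met the next bins, the one at 350 kb with the 3′ end of Slamf6 at a mean of 5.26 and the one at 450 kb with Nhlh1, Copa and Ncstn at 4.74, so high contact reached over several bins.

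Some of the cluster's weaker pairs led to the left. The bin at -200 kb, where Usf1 (a transcription factor), Tstd1 and F11r (an adhesion protein) start, met the bin at 100 kb at 4.36 and 3.45 at 3 h, 3.73 and 4.02 at 10 h, 1.82 and 2.17 in imminent division cells, and 2.36 and 2.22 in pre-S cells. It was the cluster's pair with the smallest p in both comparisons with 10 h (edgeR log2 change -0.77, adjusted p = 0.000259, and -0.73, adjusted p = 0.0106). Without the second 10 h library neither was called (adjusted p = 0.0820 and 0.220).

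The same Usf1 bin met the Gm10521 bin, with the 3′ end of Cd84, at 2.36 and 2.19 at 10 h against 1.02 and 0.965 in imminent division cells (log2 change -1.17, adjusted p = 0.000596). Its contact with the Cd84 start bin was 3.36 and 3.51 at 3 h and 2.09 and 2.31 at 10 h, the cluster's pair with the smallest p between those times, and was not called (log2 change -0.63, adjusted p = 0.577). The bin at -250 kb, with Klhdc9, Nectin4 and Arhgap30, met the Cd84 bin at 2.58 and 2.57 at 10 h and at 1.36 and 1.3 in imminent division cells (log2 change -0.92, adjusted p = 0.00482), a call lost without the second imminent division library (adjusted p = 0.0532) or without either 10 h library (adjusted p = 0.0595 and 0.132). The bin at -150 kb, over the end of F11r, met the 100 kb bin at 4.27 and 3.90 at 10 h and at 2.64 and 2.39 in pre-S cells (log2 change -0.63, adjusted p = 0.0137). At pre-S the calls of both pairs with the 100 kb bin were lost without any one library of the comparison.

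Between the groups of 33 h 130 of the 250 pairs with a cluster bin had a log2 difference below 0. The 2 that were called (0.362% of all pairs were) were both stronger in imminent division cells, and both involve the bin at 100 kb. Cd244a, whose product binds Cd48, starts at -50 kb and met that bin at 3.13 and 3.34 in imminent division cells against 2.60 and 2.77 in pre-S cells, beside 3.81 and 3.57 at 10 h (log2 difference 0.47, edgeR adjusted p = 0.0223). Ly9 met it at 2.55 and 2.68 against 2.10 and 2.24, beside 2.88 and 2.74 at 10 h (log2 difference 0.43, adjusted p = 0.0310). Without the second imminent division library these were 0.45 and 0.42 and not called (adjusted p = 0.210 and 0.213). Neither was called without either pre-S library (adjusted p from 0.137 to 0.458), with bin coverage in the offsets (adjusted p = 0.292 and 0.219), or by DESeq2.

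The profile of contacts between the whole cluster and each bin of the region shows where contact is lost. In 16 of the 20 bins to the left, all 7 in the cluster and 3 of the 20 to the right, the lowest early library was above the highest of 33 h. The 3 on the right were the bin at 350 kb and those of Vangl2 and of Pex19 with Dcaf8. Of windows across the autosomes, 22.9% were called lower to the left and 22.8% to the right from 10 h to imminent division. How many bins elsewhere separate early from 33 h libraries in this way was not counted, and the profile was not corrected for coverage. Contact with the Vangl2 bin was 4.20 at 3 h, 4.19 at 10 h, 3.13 in imminent division cells and 3.38 in pre-S cells (group means), and with the bin of Klhdc9, Nectin4 and Arhgap30 3.13, 3.01, 1.78 and 2.00. Past Crp contact was nearly absent in all groups. The 5 bins beyond it gave between 9 and 67 read pairs with the cluster a library, or 0.0513 and 0.0766 of the expected count at 3 h, 0.0746 and 0.0708 at 10 h, 0.146 and 0.125 in imminent division cells, and 0.0581 and 0.113 in pre-S cells.

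**Figure D4:**
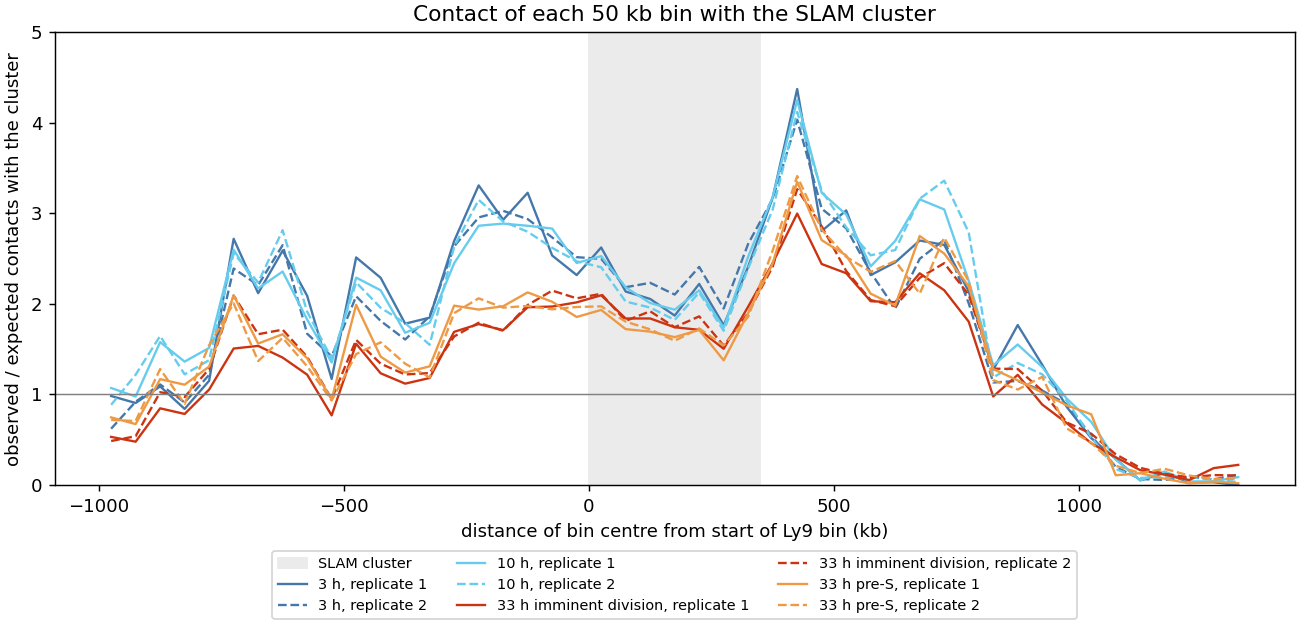
Observed over expected contact of each 50 kb bin with the 7 cluster bins (y axis, no unit, grey line at 1) against the distance of its centre from the start of the Ly9 bin (x axis, kb), with the cluster shaded and 1 line for each of 8 libraries. The early lines (blue) lie above those of 33 h (red, orange) in 16 of the 20 bins to the left of the cluster, the peak right of it is the Vangl2 bin, and all lines are close to 0 past Crp. How many bins elsewhere separate in this way was not counted.

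The left 1 Mb holds a group of genes for receptors of antibody Fc parts: Fcgr2b, the inhibitory IgG receptor of B cells, Fcgr3 and Fcgr4, activating receptors of myeloid cells, their signalling chain Fcer1g, and the Fc receptor-like genes Fcrla and Fcrlb. Their 5 bins met the cluster at 1.91 and 1.86 times the expected count at 3 h, 1.84 and 1.99 at 10 h, 1.18 and 1.36 in imminent division cells, and 1.34 and 1.31 in pre-S cells, from 474 to 1183 read pairs. Again no early library overlapped with one of 33 h, in values not corrected for coverage. Taken singly, 16 of the 20 bins to the left separated in this way, those of the Fc receptor genes among them. How often other groups of bins separate in this way was not counted. From 10 h to imminent division 25 of the 133 tested pairs from the cluster to the left (18.8%) were weaker. All 35 pairs of the Fc receptor bins were tested. Of these 7 were weaker in that comparison, with none stronger, against 1.32% weaker over all pairs. Leaving out the second imminent division library gave 3. Leaving out the first 10 h library gave 2, and without the second 10 h or the first imminent division library there were 0. The 7 were 4 pairs of Fcgr2b and 1 each of Fcgr3, Fcgr4 and Fcer1g. In the other comparisons edgeR called none, with 1, 15 and 1 pairs at an unadjusted p under 0.05 between 3 h and 10 h, 10 h and pre-S, and the groups of 33 h. Over all 1458187 pairs these counts were 86527, 167925 and 144215. DESeq2 called none between 3 h and 10 h or between the groups of 33 h, and gave none of the 35 an adjusted p in the comparisons of 33 h with 10 h. The median log2 change was -0.69 to imminent division and -0.59 to pre-S, with 34 of 35 pairs below 0 in each.

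The inhibitory receptor gene Fcgr2b met the cluster at 2.59 and 2.65 at 3 h, 2.36 and 2.81 at 10 h, 1.41 and 1.72 in imminent division cells, and 1.67 and 1.62 in pre-S cells. This was the highest mean of the Fc receptor bins except in imminent division cells, where the bin of Fcrla and Fcrlb was at 1.60 against 1.56. Fcgr3, 100 kb nearer, met it at 1.17 and 1.42, 1.35 and 1.40, 0.769 and 0.950, and 0.946 and 0.933 in the same order. The values of this paragraph were not corrected for coverage. The Fcgr3 bin was also low in promoter interactivity (described below), with 412 and 819 counts at 3 h against 1991 and 3808 for Fcgr2b. Whether its lower contact with the cluster goes beyond this was not tested. Among the other SLAM genes, Cd244a met the cluster at 2.32 and 2.52 at 3 h, 2.45 and 2.47 at 10 h, 2.02 and 2.06 in imminent division cells, and 1.86 and 1.97 in pre-S cells. Slamf9 and Slamf8, which lie at 850 and 950 kb, had means of 1.46 and 0.878 at 3 h, 1.45 and 0.943 at 10 h, 1.25 and 0.688 in imminent division cells, and 1.11 and 0.752 in pre-S cells, and their early and 33 h libraries overlapped. Cd2, a related receptor gene, lies on chromosome 3.

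The insulation score is the log2 contact of the 500 kb on one side of a bin with the 500 kb on the other, centred on each library's mean, and it is low where few contacts cross. All 7 cluster bins scored high, from 1.26 to 1.70 on average, which was above 96.1 to 99.4% of autosomal bins, so the cluster lay inside a domain and not at its edge. The Gm10521 bin, between Cd84 and Slamf6, had the highest score of the 7. At 10 h the cluster bins did not pass against 3 h by limma (differences from -0.07 to 0.08, 0 of 7 called and 0 at an unadjusted p under 0.05), with 0.508% of autosomal bins called. Scores of neighbouring bins share most of their contacts, partly those of the classes above, so the bins counted here are not separate observations. From 10 h to imminent division 7 of 7 fell, by 0.54 to 0.67, in a comparison that called 61.1% of bins and 30.3% lower. From 10 h to pre-S 7 of 7 fell, by 0.42 to 0.57, with 59.7% called and 30.7% lower. Between the groups of 33 h 0 of 7 were called (0 at an unadjusted p under 0.05), with 9.44% of bins called.

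Over the whole region 3 of 47 bins were called between 3 h and 10 h, all higher, 40 from 10 h to imminent division (38 lower), 40 to pre-S (all lower), and 9 between the groups of 33 h (4 higher in imminent division cells). The first count was 16 without the first 3 h library, 5 without the second and 0 without either 10 h or either pre-S library, and with coverage divided out it was 39. The last was 17 without either 3 h library, 5 without the first imminent division library, 7 without the second, 0 and 1 without the first and second pre-S library, and 45 with coverage divided out.

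**Figure D5:**
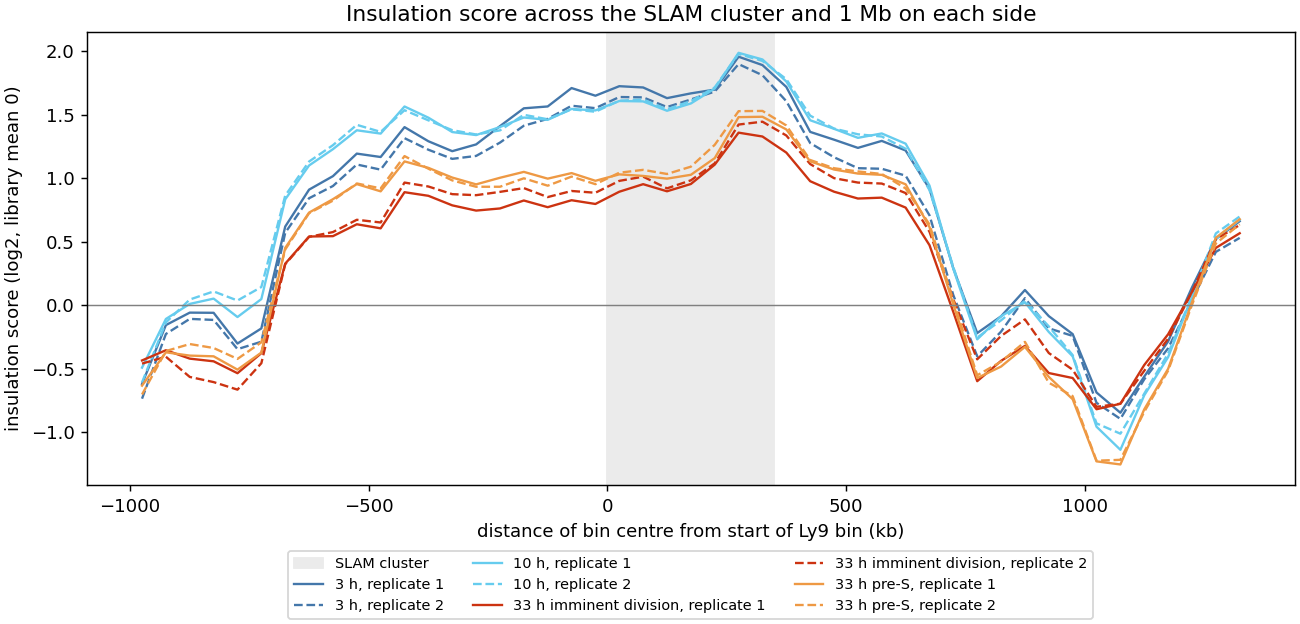
Insulation score (y axis, log2, each library's autosomal mean at 0) of the 47 bins against the distance of the bin centre from the start of the Ly9 bin (x axis, kb), with the cluster shaded and 1 line for each of 8 libraries. The cluster lies lower in the libraries of 33 h, and the lowest point is the Crp bin at 1050 kb, where the pre-S lines (orange) are below and the imminent division lines (red) above those of 10 h.

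The minima nearest to the cluster were the bin of Olfml2b at -1000 kb (chr1:170599943-170650454), a gene for a secreted protein, and that of Crp at 1050 kb (chr1:172650085-172699441), which encodes a pentraxin of the acute phase. The Crp bin scored -0.846 and -0.894 at 3 h, -1.14 and -1.01 at 10 h, -0.775 in both imminent division libraries, and -1.25 and -1.22 in pre-S cells, on average above 5.83% of autosomal bins. The groups of 33 h were thus on opposite sides of 10 h. Imminent division was higher than 10 h by 0.30 (limma, adjusted p = 0.00387) and higher than pre-S by 0.46 (adjusted p = 0.00273), while pre-S and 10 h differed by -0.16 (adjusted p = 0.0827). The first was not called without the first 10 h library (0.24, adjusted p = 0.0789), nor the second without the first pre-S library (0.44, adjusted p = 0.0733). Olfml2b scored -0.619 and -0.735 at 3 h, -0.491 and -0.607 at 10 h, -0.434 and -0.459 in imminent division cells, and -0.633 and -0.702 in pre-S cells, and was not called in any comparison. Its bin is the first of the region and was on average above 20.7% of autosomal bins, so it was a weaker minimum than that of Crp. Without either 3 h library the Olfml2b bin was called higher in imminent division than in pre-S cells (0.22).

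Boundary strength was also read from 100 kb regions, as the log2 ratio of upstream to downstream counts over 1 Mb, where a change towards 0 means a weaker bias. Of the 23 regions tested, none was called between 3 h and 10 h (edgeR glmTreat, 2 at an unadjusted p under 0.05, 0.379% of all regions called), and 3 with no fold threshold. There were 8 from 10 h to imminent division (18.1%), 3 to pre-S (4.84%) and 3 between the groups of 33 h (5.53%). In the cluster the Slamf6 region alone was called. This region, at the right end, leaned upstream by 1.09 at 3 h, 0.94 at 10 h, 0.68 in imminent division cells and 0.66 in pre-S cells, a loss from 10 h that was called in both groups (adjusted p = 0.0114 and 0.0253). It was not called in imminent division cells without their second library (adjusted p = 0.105). Without the first 10 h library neither was called (adjusted p = 0.210 and 0.258). Pre-S lost its call without either of its own libraries (adjusted p = 0.152 and 0.0780). The Ly9, Slamf1 and Cd84 regions were not called in any of the 4 comparisons. From 10 h to pre-S the insulation scores of the Olfml2b and Crp bins changed by -0.12 and -0.16, neither called, towards fewer contacts across them. The ratio moved towards 0 at both edges, so in pre-S cells the 2 measures did not both show a weaker edge. At the left edge the ratio of the Olfml2b region went from -0.92 at 10 h to 0.13 in imminent division cells and -0.46 in pre-S cells. At the right edge that of Fcrl6, Dusp23 and Crp went from 0.38 to -0.05 and 0.03, all 4 called. The count in pre-S cells was 1 when the first 10 h library was left out and 0 when the first pre-S one was, and that between the groups of 33 h was 1 without the second imminent division library.

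Compartments divide chromosomes into open A and closed B chromatin, and the first principal component of the contact map at 100 kb, scaled to an SD of 1, is positive in A. The cluster was in A in all 8 libraries. The bin of Ly9, Slamf7 and Cd48 had values of 1.2 and 1.13 at 3 h, 1.17 and 1.14 at 10 h, 1.27 and 1.29 in imminent division cells, and 1.28 and 1.32 in pre-S cells. The 4 cluster bins rose by 0.12 to 0.16 from 10 h to imminent division and by 0.11 to 0.14 from 10 h to pre-S, all 4 called by limma in each. To imminent division 2 or 3 of the 4 remained called without a library of 10 h or of that group (2 without its second), and to pre-S between 1 and 3 without any library other than those of 3 h. None was called between 3 h and 10 h or between the groups of 33 h (0 at an unadjusted p under 0.05 in both). So the compartment value rose where contacts within 1 Mb fell. Over the 24 bins of the region 1 was called between 3 h and 10 h (4.49% of all bins), 9 to imminent division (27%), 12 to pre-S (20.5%) and 3 between the groups of 33 h (15.8%). The count to imminent division was 3 without its second library, 5 without its first, 5 and 4 without the first and second 10 h library and 14 without either 3 h library, and that to pre-S was 5 without its second library and 6 without either 10 h library.

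To the right, the bin of Fcrl6, Dusp23 and Crp was in A at 1.16 in both 10 h libraries, and fell by 0.20 in imminent division cells and by 0.29 in pre-S cells (limma, adjusted p = 0.000942 and 0.000305). The Apcs bin 200 kb on, which holds another pentraxin gene, was at 0.041 and 0.092 at 3 h, -0.045 and -0.013 at 10 h, -0.105 and -0.113 in imminent division cells, and -0.318 and -0.325 in pre-S cells, so the sign differed between groups and pre-S was the most negative. It was lower in pre-S cells than at 10 h by 0.29 (adjusted p = 0.000125) and than in imminent division cells by 0.21 (adjusted p = 0.000722).

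Far from the cluster, its contacts on chromosome 1 went almost wholly to A. Of the read pairs of the cluster beyond 2 Mb, the share on A bins was 96.1% (95% Wilson interval 95.6 to 96.5%) and 96.3% (96.0 to 96.7%) at 3 h, 96.6% (96.2 to 97.0%) and 96.2% (95.8 to 96.5%) at 10 h, 92.6% (92.2 to 93.1%) and 93.7% (93.3 to 94.1%) in imminent division cells, and 94.5% (94.0 to 95%) and 93.2% (92.6 to 93.8%) in pre-S cells. A bins made up 45.9% of the bins at that distance. The share was not computed for other windows, so whether it fell alike elsewhere was not tested. It moved away from A at 33 h, while the compartment value of the cluster rose from 10 h to both groups of 33 h. The groups differed by the exact permutation test (p = 0.0476, the same after adjustment), with each library of 33 h below each early one, and the call was lost without the first 3 h, 10 h or imminent division library or either pre-S library (adjusted p from 0.0667 to 0.0889) and with the cluster widened to gene bodies (adjusted p = 0.0571).

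Promoter interactivity is the sum of a start bin's contacts above a distance curve. For Cd84, the highest of the 5 bins, it was 3547 and 3764 normalised counts at 3 h, 3638 and 3621 at 10 h, 3500 and 3611 in imminent division cells, and 3456 and 3405 in pre-S cells. For Slamf6, the lowest, it was 2533 and 2752, 2638 and 2648, 2644 and 2511, and 2479 and 2463 in the same order. None of the 5 SLAM start bins was called in any comparison by edgeR, where 0.361% of promoter bins were called between 3 h and 10 h, 50.4% from 10 h to imminent division, 33.6% to pre-S and 17.9% between the groups of 33 h. At an unadjusted p under 0.05 there were 0, 1, 2 and 0 of 5, beside 1537, 6999, 5459 and 3797 of all 12470 promoter bins. DESeq2 called 0, 0, 3 and 3 of the 5. With no filter on interactions edgeR called 2 of the 5 from 10 h to imminent division and 1 between the groups of 33 h. Shares over all promoter bins are not given for DESeq2 or for the fit with no filter. Log2 changes of the 5 bins ran from -0.04 to 0.09 in imminent division cells and from -0.10 to 0.03 in pre-S cells, both against 10 h.

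Among the Fc receptor genes the Fcgr2b bin fell by 0.10 (adjusted p = 0.0177) and the Fcgr3 bin rose by 0.15 (adjusted p = 0.0291) from 10 h to imminent division by edgeR, and Fcgr3 was higher there than in pre-S cells by 0.30 (adjusted p = 0.000628). DESeq2 called 0 of the 5 bins from 10 h to imminent division (smallest adjusted p = 0.0956). Fcgr2b was not called without either 10 h library or the first imminent division library (edgeR, adjusted p from 0.0778 to 0.161). Fcgr3 was not called without either 10 h library or the second imminent division library (adjusted p from 0.0983 to 0.207). With no filter on interactions the first changes turned to 0.00312 and -0.0418 and were not called. None of the Fc receptor bins was called in the other comparisons (0 at an unadjusted p under 0.05 between 3 h and 10 h and 2 from 10 h to pre-S, DESeq2 0 and 1), except that bin coverage in the offsets gave 1 between 3 h and 10 h (adjusted p = 0.0410) and no interaction filter gave 1 from 10 h to pre-S (adjusted p = 0.00152). No bin of Cd244a, Slamf8, Slamf9 or Cd2 was called (0 of 4 at an unadjusted p under 0.05 in each comparison), though DESeq2 called 1 from 10 h to pre-S and bin coverage in the offsets gave 1 from 10 h to imminent division.

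The 13 genes of SLAM signalling lie outside the region, Sh2d1b1 and Sh2d1b2 to its left. Of their start bins 7 were called from 10 h to imminent division and 5 from 10 h to pre-S, shares near those of all promoter bins (50.4% and 33.6%). The bins of the phosphatases Inpp5d (log2 change -0.22 and -0.23), Ptpn11 (-0.18 and -0.20) and Ptpn6 (-0.14 and -0.18) and of the exchange factor Vav1 (-0.12 and -0.14) fell in both. The bin of Prkcq, a kinase of antigen receptor signalling, rose in both (0.09 and 0.12), and that of Fyn, the kinase that SAP brings to the receptors, rose in imminent division cells (0.18). Pik3c3, a lipid kinase of endosomes and autophagy, fell in imminent division cells (-0.16) and was lower there than in pre-S cells (-0.28). Adjusted p ranged from 1.3e-05 (Inpp5d) to 0.0453 (Prkcq), and median changes over the 13 were -0.00 and 0.01 beside -0.00 over all promoter bins. The bin of Ptpn6 also holds starts of other genes. With bin coverage in the offsets 2 and 3 of the 13 were called, and by DESeq2 4 and 4. Without the second imminent division library Vav1, Prkcq and Pik3c3 were not called from 10 h to imminent division (edgeR, adjusted p = 0.0854, 0.0843 and 0.103), while Inpp5d, Ptpn11, Ptpn6 and Fyn were.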

How the data were processed

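The deposited files hold raw read-pair counts between bins of about 50 kb for each library, which the authors made by aligning to mm10 with diffHic (cutadapt and bowtie2) and removing duplicates, dangling ends and long fragments. The counts were neither balanced nor scaled by the authors. Here the bins were rebuilt from the MboI fragments of GRCm38 and matched to the files. Bins with over 10% undetermined sequence or coverage over 4-fold from the rest were left out (756 of 48088 autosomal bins, none in the region). Groups followed the labels, with 2 biological replicates each. No replicate pair was a duplicate, since the chi-square per degree of freedom of their counts was 1.47 to 11.5. It was 5.30 at 3 h, 1.47 at 10 h, 11.5 in imminent division cells and 1.56 in pre-S cells, so replicates differed most in imminent division cells by this measure.

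Bin pairs, windows (at least 10 counts) and promoter bins (at least 200 counts) were tested with edgeR's quasi-likelihood test. Offsets depended on abundance for bin pairs, fitted separately under 1.5 Mb, and for promoter bins, without that split. For windows the offset was the count expected at the same distances in the same library. Boundaries were tested with glmTreat at 1.1-fold, and insulation and compartments with limma. All were fitted over the autosomes and all 4 groups, with Benjamini-Hochberg adjustment at 0.05, and 7 measures of the locus by an exact permutation test. DESeq2 was an alternative, fitted for bin pairs with size factors only and without the offsets for abundance. The rule for named pairs was the cluster's called pairs with the smallest p, at most 3 a direction and comparison, or the smallest p where none was called. Partners were the bins at 100 kb or more with the highest mean contact, and edges the insulation minima over 5 bins on each side. Sh2d1a lies on X, outside the fits. Genes of the Fc receptor, other SLAM and SLAM signalling lists were named where called. The members and lists were chosen with earlier results of these data known. Wilson intervals (95%) cover counting error only. Scripts were tested on simulated data with the same spread in every group, unlike the replicates here, and with a lower pass mark for single bin pairs. Versions were edgeR 4.0.16, limma 3.58.1, DESeq2 1.42.0 and R 4.3.3. Sequences came from the GRCm38 genome.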

Additional observations from a re-analysis of the deposited data

How the results depend on the processing

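Falls of the cluster's contacts from 10 h to both groups of 33 h kept their direction under every alternative run, and in the windows all were called except that inside at imminent division without the first 10 h library. What changed was the comparison of 3 h with 10 h, the comparison of the groups of 33 h, and counts of single pairs or bins. With bin coverage divided out, the log2 differences of the windows from 3 h to 10 h were 0.246 inside, 0.333 left, 0.356 right and 0.279 over, and those of imminent division over pre-S were -0.118, -0.279, -0.271 and -0.355. The change from 3 h to 10 h, near 0, also turned on the left with TMM (0.0175), DESeq2 (0.00902) and chromosome 1 as the expected (0.00167), and over the cluster with TMM (0.0105), gene bodies (0.00198) and 500 kb flanks (0.0111). The difference over the cluster between the groups of 33 h was -0.177 with gene bodies and -0.210 with 500 kb flanks.

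Pairs of the region called numbered 17, 253 and 46 with bin coverage (3 h to 10 h, 10 h to imminent division, groups of 33 h), 1, 40 and 14 with 100 kb bins (3 h to 10 h, 10 h to pre-S, groups of 33 h), 25 and 3 with TMM (10 h to pre-S, groups of 33 h), and 29, 7 and 0 with DESeq2 (the 3 comparisons after the first). DESeq2 gave only 192 and 150 of the 849 pairs an adjusted p in the comparisons of 33 h with 10 h, and none over the cluster, so the others could not be called. Insulation bins called from 3 h to 10 h were 0 with 5 or with 20 bins a side and 39 with coverage divided out, and between the groups of 33 h 3 with 20 bins and 45 with coverage. With no fold threshold 3, 15, 8 and 11 boundary regions were called in the 4 comparisons, and with a 500 kb reach 5 at imminent division and 1 at pre-S. Compartment bins called from 3 h to 10 h were 3 after quantile normalization and 2 at 250 kb. SLAM promoter bins called were 2 (10 h to imminent division) and 1 (groups of 33 h) with no interaction filter, and 3 (10 h to pre-S) and 3 (groups of 33 h) with DESeq2. In the permutation tests contacts inside were -0.141 with coverage (adjusted p = 0.257), those within the right 1 Mb -0.0584 (adjusted p = 0.0667), those within the left flank -0.165 with 500 kb flanks (adjusted p = 0.0667), and the far A share -2.78 points with gene bodies (adjusted p = 0.0571). With no interaction filter the Fcgr2b bin changed by 0.00312 and the Fcgr3 bin by -0.0418 from 10 h to imminent division.

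Leaving out each library in turn, the 4 comparisons (3 h to 10 h, 10 h to imminent division, 10 h to pre-S, groups of 33 h) called 0 to 0, 16 to 146, 0 to 17 and 0 to 7 pairs, 0 to 16, 35 to 42, 39 to 40 and 0 to 17 insulation bins, 0 to 0, 7 to 9, 0 to 3 and 1 to 3 boundary regions, 0 to 2, 3 to 14, 5 to 18 and 2 to 4 compartment bins, and 0 to 0, 0 to 1, 0 to 1 and 0 to 0 SLAM promoter bins. Window changes ranged inside from -0.128 to -0.0324, -0.224 to -0.164, -0.308 to -0.248 and 0.0689 to 0.0997, left from -0.0142 to 0.00878, -0.562 to -0.476, -0.468 to -0.444 and -0.107 to -0.0204, right from 0.0337 to 0.0947, -0.386 to -0.300, -0.290 to -0.258 and -0.112 to -0.0267, and over from -0.0657 to 0.0354, -0.707 to -0.604, -0.545 to -0.494 and -0.187 to -0.0848. The early to 33 h differences ranged from -0.299 to -0.247 inside, -0.503 to -0.464 left, -0.297 to -0.251 right, -0.626 to -0.555 over, -0.243 to -0.213 within the left and -0.164 to -0.130 within the right 1 Mb, and -3.11 to -2.49 points in the far A share. The causes of these shifts were not tested.

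The replicate numbers did not pair the samples with a common sign, since correlations of same-numbered deviations ran from -0.793 (3 h with imminent division) to 0.385 (3 h with 10 h). Replicate differences were thus partly shared between groups, and the cause was not tested. With the number as a block 0, 122, 10 and 6 pairs of the region and 0 insulation bins from 3 h to 10 h were called, and the adjusted p was 0.0514 for Cd84 with Slamf6 and 0.0653 for the Prkcq promoter bin, both from 10 h to imminent division. Depth limits single pairs, since those of SLAM start bins rested on 38 to 651 read pairs a library. With 2 libraries a group, p-values rest on few degrees of freedom.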
